A study of Mus musculus with 7 samples.

Results

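Kinesin genes were followed in brain RNA of mice carrying the V1SSV2 constructs. The genes were taken by name: every gene in the table whose mouse symbol is Kif with a number and an optional letter a to c, Kifc with a number, Klc1 to Klc4, or Kifap3. The rule found 46 of 48526 genes, among them 17 motors of neuronal transport, 5 light chain or adaptor subunits, 13 mitotic motors and 11 motors of microtubule ends, cilia and other roles. No measured value entered the rule. Of the 46, 42 had a mean of 3 or more over the libraries and were tested.

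V1S and SV2 are fusions of α-synuclein with complementary fragments of the fluorescent protein Venus, which lights up when the fragments come together. All 7 libraries were made from brains of 24 month old mice labelled DT Venus. Mice of the 4 on libraries are labelled Glucose and those of the 3 off libraries Dox, so doxycycline and the state of the constructs cannot be told apart. Not given in the sources used here are the brain region, the strain, the sex and the promoter that drives the constructs, and the RNA of the constructs themselves was not analysed here. The comparison asks whether kinesin genes differed when the constructs were on rather than off.

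Kinesins are motor proteins that hydrolyse ATP to walk along microtubules. In neurons they carry vesicles, mitochondria and other cargo from the cell body along the axon, mostly toward microtubule plus ends, whereas cytoplasmic dynein carries cargo back. Conventional kinesin is a pair of heavy chains, Kif5a, Kif5b or Kif5c, joined to light chains that bind cargo. Other kinesins build and pull the mitotic spindle in dividing cells, and most neurons of the adult brain no longer divide. The synaptic vesicle protein α-synuclein is itself made in the cell body and moved along the axon to the synapse.

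The feature that makes a kinesin a motor is a nucleotide-binding loop in the motor domain, the P-loop, which holds the phosphates of ATP. Its codons were searched in the longest coding sequence of each gene (GENCODE M21, GRCm38) as a run of 8 codons, 24 bases, that reads glycine, any residue, threonine, any pair of residues, glycine, lysine, and threonine or serine. They were found in 39 of the 46 genes. The loop was found in all 17 transport motors, all 13 mitotic motors and 9 of the 11 others. The 7 genes without it were Klc1 to Klc4 and Kifap3, which encode subunits and not motors, and Kif26a and Kif26b, which are known as kinesins that do not hydrolyse ATP. The following loops, written 5′ to 3′ on the coding strand, are examples from motors of different use. The codons for glycine, lysine and the last residue are in capitals. The search required the fixed residues, so their likeness between the loops is not a result.

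Kif5c, chr2:49680203-49680226, plus strand, exon 3: gggcagacttcatcaGGAAAAACT
Kif1a, chr1:93077739-93077762, minus strand, exon 4: gggcagacgggggccGGCAAGTCC
Kif1b, chr4:149274967-149274990, minus strand, exon 4: gggcagactggtgctGGGAAATCC
Kifc3, chr8:95105732-95105755, minus strand, exon 12: ggccagacaggtgccGGCAAGACA
Kif11, chr19:37384736-37384759, plus strand, exon 4: ggtcagactggcactGGAAAAACT
Kif23, chr9:61937178-61937201, minus strand, exon 5: ggcgtgacgggaagtGGAAAAACC

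The first 4 belong to transport motors and the last pair to mitotic motors. The last codon reads serine in 9 genes: Kif1a, Kif1b, Kif1c, Kif13a, Kif13b, Kif16b, Kif17, Kif14 and Kif28. It reads threonine in the other 30.

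The promoters separated the mitotic from the transport motors in a feature that the names do not hold. Cell-cycle genes are known for the cell cycle homology region (CHR, letters TTTGAA), a short element near the start that repressor complexes bind in resting cells, and for CCAAT boxes upstream of it. RefSeq promoters on GRCm38.p6, from 250 bases before the start to 50 after it, were matched by symbol for 36 of the 46 genes, and 4 of these genes have 2 entries each. Kif13b, Kif19a, Kif20a, Kif21b, Kif28, Kif5a, Kif5b, Kifc2, Kifc3 and Klc2 were not matched. The letters TTTGAA, on either strand, were found in 10 of 12 mitotic motors (83.3%) and in 1 of 11 transport motors (9.09%, Kif1a). They were found in 0 of 4 light chain and adaptor genes, in 2 of 9 others (22.2%) and in 20.2% of all 27025 genes with a promoter.

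Closer to the start, from 100 bases before it to 25 after it, 8 of 12 mitotic motors (66.7%) held TTTGAA, against 8.10% of all genes with a promoter. These were Kif11, Kif15, Kif18b, Kif20b, Kif22, Kif23, Kif4 and Kifc1. Near the start TTTGAA was also found in 1 of 11 transport motors (9.09%, Kif1a) and in 2 of 9 others (22.2%, Kif26b and Kif27). It was found in 0 of 4 light chain and adaptor genes. In the same stretch the letters CCAAT were found in 8 of 12 mitotic motors (66.7%), in 3 of 11 transport motors (27.3%) and in 24.1% of all genes. Over the whole promoter they were found in 8 of 12 mitotic motors, 3 of 11 transport motors and 41.1% of all genes. There 3 of 4 light chain and adaptor genes (75.0%) and 4 of 9 others (44.4%) also held them. Below are the stretches of 125 bases near the start for 5 mitotic motors that hold both motifs there. TTTGAA and CCAAT, or their reverse complements TTCAAA and ATTGG, are in capitals.

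Kif11, chr19:37376282-37376406, plus strand: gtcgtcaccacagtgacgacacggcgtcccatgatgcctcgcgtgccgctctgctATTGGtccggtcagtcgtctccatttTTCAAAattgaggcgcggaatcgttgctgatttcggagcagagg
Kif22, chr7:127042396-127042520, minus strand: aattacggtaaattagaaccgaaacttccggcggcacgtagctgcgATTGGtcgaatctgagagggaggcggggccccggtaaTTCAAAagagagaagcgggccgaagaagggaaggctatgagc
Kif23, chr9:61946775-61946899, minus strand: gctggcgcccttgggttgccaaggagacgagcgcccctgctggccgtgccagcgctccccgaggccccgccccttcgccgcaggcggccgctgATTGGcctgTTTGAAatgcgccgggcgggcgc
Kif18b, chr11:102925100-102925224, minus strand: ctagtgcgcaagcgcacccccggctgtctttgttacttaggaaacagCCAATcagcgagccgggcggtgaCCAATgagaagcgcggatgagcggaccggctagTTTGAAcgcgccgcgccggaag
Kif4, chrX:100625965-100626089, plus strand: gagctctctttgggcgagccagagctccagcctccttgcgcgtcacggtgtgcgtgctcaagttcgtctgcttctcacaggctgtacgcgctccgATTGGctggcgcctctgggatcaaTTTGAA

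In each of the 5 shown the CHR letters lie downstream of a CCAAT box. Kifc1 also holds both motifs in this stretch but is not shown, and the order in it is not given here. The first base of the CHR lies at -19 from the start in Kif11, -17 in Kif22, 3 in Kif23, 4 in Kif18b and 20 in Kif4, with the start itself counted as 1. The same stretches of 3 transport motors without TTTGAA are shown for contrast. Kif1a, the transport motor with TTTGAA, whose first base lies at -44, is not shown.

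Kif1b, chr4:149307709-149307833, minus strand: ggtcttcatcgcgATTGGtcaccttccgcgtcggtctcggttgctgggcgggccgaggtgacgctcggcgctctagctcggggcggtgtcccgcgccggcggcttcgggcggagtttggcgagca
Kif3a, chr11:53567269-53567393, plus strand: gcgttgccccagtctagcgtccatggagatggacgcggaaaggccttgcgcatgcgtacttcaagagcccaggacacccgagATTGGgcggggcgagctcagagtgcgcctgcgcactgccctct
Kif5c, chr2:49619186-49619310, plus strand: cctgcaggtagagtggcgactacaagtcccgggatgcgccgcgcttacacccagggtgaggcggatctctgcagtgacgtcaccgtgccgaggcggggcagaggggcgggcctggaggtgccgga

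Kif1b and Kif3a hold 1 CCAAT box each and Kif5c neither motif. GC boxes, letters GGGCGG on either strand, were found over the whole promoter in 9 of 11 transport motors (81.8%), 6 of 12 mitotic motors and 38.2% of all genes. TATA boxes, letters TATAAA on either strand, were found in 1 of 11 transport and 1 of 12 mitotic motors, against 15.7% of all genes. The median GC content was 69.3% in transport promoters, 60.2% in mitotic promoters and 52.7% over all 32851 promoters. Longer and variant forms of the CHR were also searched: TTTGAAA, which contains TTTGAA, was found in 5 of 12 mitotic motors (41.7%, all genes 7.48%), and TTCGAA in 0 of 12 (all genes 1.80%). A match of letters is a description of these windows and does not show that a factor binds there.

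Expression separated the same groups. The deposited unit is the regularized logarithm (rlog), whose scale is log2, so that 1 unit is a factor of 2. For comparisons between genes the mean rlog value was reduced by the log2 of the transcript length in kilobases and is called the level per kb. The median level per kb was 10.46 over 17 transport motors, 11.35 over 5 light chain and adaptor genes, 5.13 over 9 other kinesins and 2.94 over 11 mitotic motors. Over all 17896 tested genes it was 7.60. Every tested transport motor but Kif16b lay above that median of all genes, and every tested mitotic motor lay below it.

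The order was led by neuronal motors. Kif5a, the neuron-specific conventional heavy chain, was highest at 14.07 per kb, and the light chain Klc1 followed at 13.22. Kif5c, also neuronal, lay at 12.53 and Kif1a, the carrier of synaptic vesicle precursors, at 12.51. Kif1b, which carries mitochondria and synaptic vesicle precursors, had 12.06 and the brain-enriched minus-end-directed motor Kifc2 12.05. Ranges over the 7 libraries overlapped for Kif5c and Kif1a, and for Kif1b and Kifc2, so neither pair can be ordered. The kinesin-2 adaptor Kifap3 lay at 11.61, Klc2 at 11.35 and Kif5b, the conventional heavy chain found in most tissues, at 11.28. Ranges did not overlap in 25 of the 41 neighbouring pairs in the order and overlapped in 16. The ranges cover the spread between libraries alone. They leave out any error in the length, which is that of the longest annotated transcript, so separate ranges do not establish the order.

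**Figure D1:**
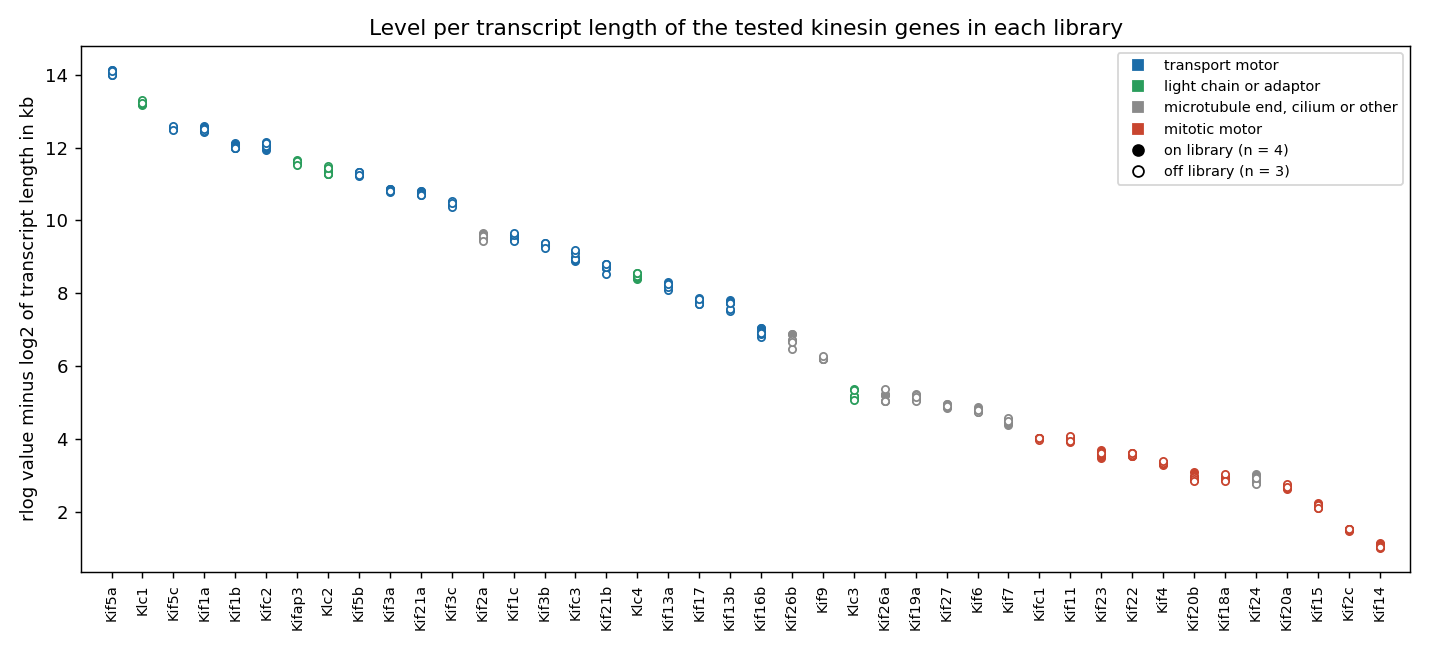
Level per kb (mean rlog minus log2 of transcript length in kb, log2 scale) of the 42 tested kinesin genes in each library, ordered from high to low, with filled points for on and open points for off and colours for the role of the gene. Transport motors and light chains fill the upper end from Kif5a at 14.07 down, mitotic motors fill the lower end down to Kif14 at 1.06, and on and off points of a gene lie close together.

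Among the ciliary and mitotic kinesins the levels were low but above the filter in most cases. The highest mitotic motors per kb were Kifc1 at 4.02 and Kif11, the bipolar motor that pushes spindle poles apart, at 3.98. These ranges overlapped, and 47.6% of the 50-base words of the Kifc1 transcript also occur in transcripts of other genes, among them Kifc5b, so its value is uncertain. The other members share at most 3.04% of such words. The lowest tested member was Kif14, a motor of cytokinesis, at 1.06 per kb. The 4 members under the filter were Kif12, at a mean rlog of 0.27, Kif18b at 2.55, Kif28 at 2.09 and Kif2b, listed at 0 in all 7 libraries. Kif2c, at 3.01, was the tested member nearest the filter. In bulk RNA, fewer cells of a type and less RNA per cell cannot be told apart.

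The 7 libraries differ in ways that bear on these genes. With no counts used here, their depth is unknown. Since no label ties each library to its own animal, p-values cover the spread between these 7 samples alone. On replicate 1 stood apart from the other on libraries: on the first principal component (47.7% of the variance) it lay at -4.10 while the other on libraries lay between 7.19 and 9.15 and the off libraries between -8.64 and -3.56. Deviations from gene means followed transcript length upward in on replicates 2 to 4 (Spearman correlation across genes 0.27 to 0.29), downward in the off libraries (-0.32 to -0.23) and hardly in on replicate 1 (-0.06). Markers of neurons, 6 genes, had a mean rlog of 14.47 to 14.62 in the 7 libraries with a median difference, on minus off, of -0.07, and none passed the test. Median differences of the other marker lists ran from -0.08 for microglia to 0.11 for endothelium. The lists held 6 neuron, 5 astrocyte, 5 oligodendrocyte, 3 oligodendrocyte precursor, 5 microglia, 4 endothelial, 7 ependymal and 4 choroid plexus genes. Among all these markers 1 passed, Olig2 of the oligodendrocyte lineage at -0.24 (limma adjusted p = 0.0493), where 2.60% of all tested genes passed. After the correction for GC content and transcript length none did, where 0.589% of all genes passed. The 4 endothelial markers deviated by -0.24 in on replicate 1 and -0.23 in off replicate 2. Without on replicate 1 their median difference was 0.20. In that fit, where 16.3% of all genes were called, Flt1 and Pecam1 were higher in on (limma adjusted p = 0.00233 and 0.0380). Tek differed there by 0.16 and Cldn5 by -0.10, and neither passed. Markers of other cell types passed there with lower values in on: Tubb3, Mog, Olig2 and Tmem119 (limma adjusted p = 0.00837, 0.0299, 0.00603 and 0.0239). Kif13b and Kif26b also passed in that fit. The part of any of these cell types in the values of those kinesins was not tested.

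No kinesin gene passed the test between on and off. With limma and Benjamini-Hochberg adjustment over all tested genes at 0.05, 0 of 42 were called, against 2.60% of all 17896 tested genes (466). At an unadjusted p under 0.05 there were 8 kinesin genes (19.0%), against 20.7% of all tested genes. Positive differences at that p were found in 6 of 42 members, against 10.0% of all tested genes, and negative ones in 2 of 42, against 10.6%. All on libraries lay above all off libraries in 5 members (11.9%, all genes 7.13%) and below them in 0 (all genes 8.09%). The 5 were Kif1b, Kif16b, Kif21a, Kif3a and Kifc1. The median difference over the 42 genes was 0.01 and over all tested genes 0.00, and the members ran from -0.14 to 0.17. The 95% intervals of the members had a median half-width of 0.10 and reached at the extremes -0.25 and 0.31. In 36 of 42 members the interval lay within 0.2 of 0, which is 14.9% on the rlog scale and, for the low genes that the transformation shrinks, not a limit on the change of the RNA itself. Simulated data had the same design but noise drawn independently for each gene and library, without the trends that the real libraries share. There the test recovered 0 of 50 genes changed by 0.1, 18 of 50 changed by 0.2 and 45 of 50 changed by 0.4. These rates do not show what the test would recover in the real libraries.

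**Figure D2:**
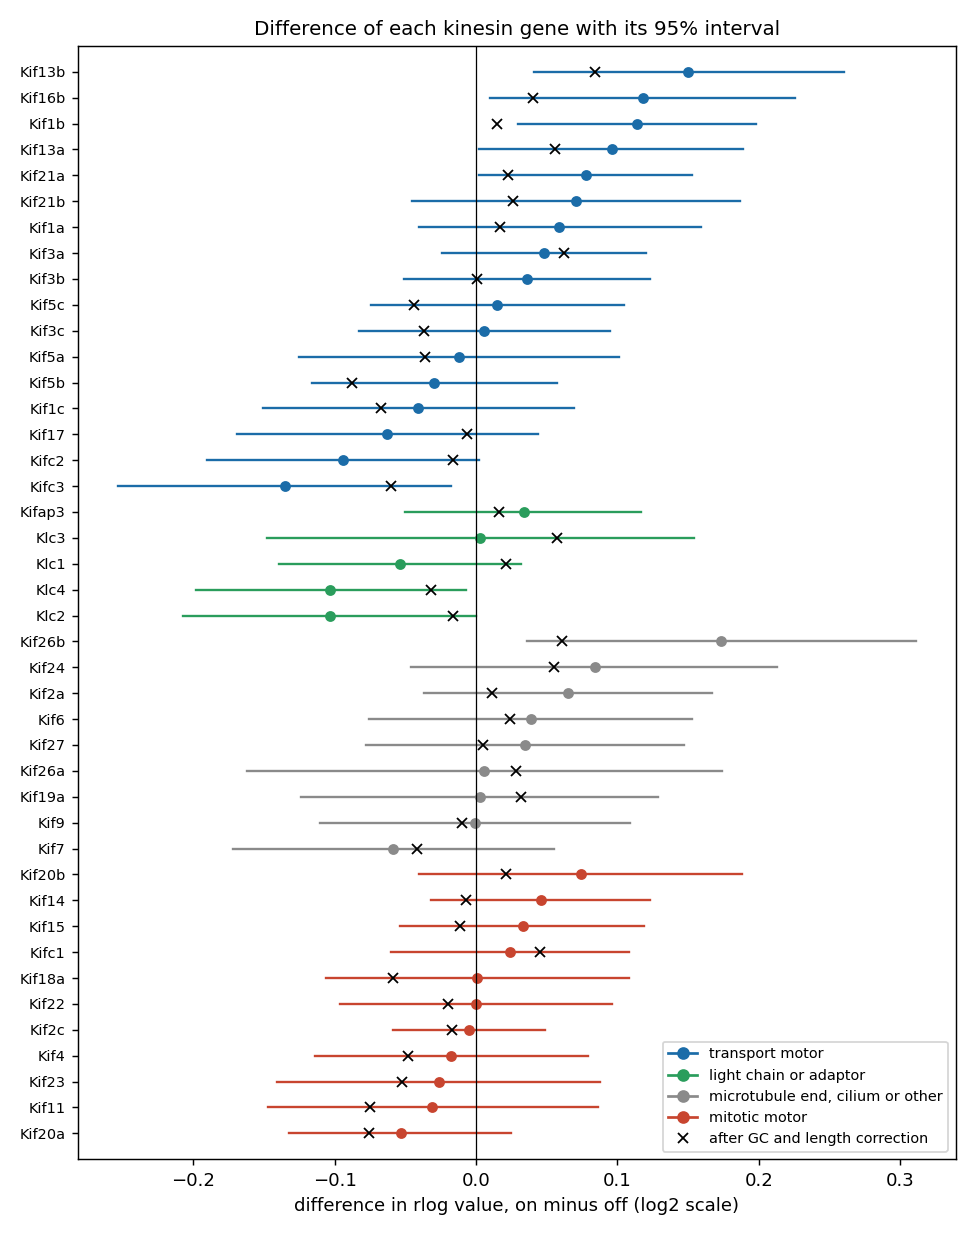
Difference between on (n = 4) and off (n = 3) in rlog, log2 scale, for the 42 tested kinesin genes with the 95% interval of the limma fit, grouped by role, and with crosses for the value after the correction for GC content and transcript length. Differences run from -0.14 (Kifc3) to 0.17 (Kif26b), and several crosses of long genes, such as Kif1b at 0.02, lie nearer 0 than their points.

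Of the 6 kinesin-3 motors in the transport group, which carry vesicles and organelles, 5 had positive differences, and none passed. Positive differences were found in 9223 of all 17896 tested genes. Kif1b (chromosome 4, 149176319 to 149307693) had rlog values of 15.46, 15.46, 15.49 and 15.43 in the on libraries and 15.35, 15.34 and 15.35 in the off libraries. All 4 on libraries lay above all 3 off libraries, and the replicates of a group lay close together. The means were 15.46 ± 0.03 (SD, n = 4) and 15.35 ± 0.01 (SD, n = 3), a difference of 0.11 ± 0.04 (SE, limma adjusted p = 0.125). Its transcript is 10233 bases long, and with a correction that removes from each library a smooth trend with GC content and transcript length, the difference was 0.02 ± 0.03 (SE, adjusted p = 0.820). Kif1a, its neuronal relative, had 15.63, 15.49, 15.60 and 15.55 in on and 15.47, 15.50 and 15.56 in off. These ranges overlap, with on replicates 2 and 4 among the off values, and the difference was 0.06 ± 0.05 (SE, adjusted p = 0.498; 95% interval -0.04 to 0.16).

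The largest difference among transport motors was that of Kif13b, which carries phosphoinositide-containing vesicles and is also known as GAKIN. Its rlog values were 10.87, 10.90, 10.97 and 10.87 in on and 10.66, 10.72 and 10.88 in off. Off replicate 3 lay among the on libraries and the other off libraries below them. The difference was 0.15 ± 0.05 (SE, adjusted p = 0.121; 95% interval 0.04 to 0.26), and 0.08 ± 0.04 (SE, adjusted p = 0.301) after the correction. Without on replicate 1 it was 0.16 and passed (limma adjusted p = 0.0406, where 16.3% of all genes were called), and with limma's array weights it was 0.17 and passed (limma adjusted p = 0.0329, where 12.4% were called). Its relative Kif13a, a carrier of vesicles with the mannose-6-phosphate receptor, had on values of 11.01 to 11.10 and off values of 10.87 to 11.03. They overlapped in off replicate 3, with a difference of 0.10 ± 0.04 (SE, adjusted p = 0.231), and 0.06 after the correction. Kif16b, a motor of early endosomes, had on values of 9.60 to 9.73, just above the off values of 9.48 to 9.59, and a difference of 0.12 ± 0.05 (SE, adjusted p = 0.203), which was 0.04 after the correction. Kif1c, a more widely expressed relative, had the opposite sign at -0.04 ± 0.05 (SE, adjusted p = 0.691), with on at 12.20 to 12.35 and off at 12.18 to 12.40.

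The conventional heavy chains differed little. Kif5a (chromosome 10, 127225696 to 127263348), the gene of a hereditary spastic paraplegia, had rlog values of 16.79, 16.64, 16.76 and 16.71 in on and 16.66, 16.79 and 16.75 in off. The off values lie within the range of the on values. The difference was -0.01 ± 0.05 (SE, adjusted p = 0.925) with a 95% interval of -0.13 to 0.10. Kif5c had 15.31, 15.30, 15.35 and 15.29 in on and 15.28, 15.36 and 15.25 in off, again overlapping, with a difference of 0.02 ± 0.04 (SE, adjusted p = 0.869; 95% interval -0.07 to 0.11). Kif5b had 13.88, 13.92, 13.81 and 13.84 in on and 13.93, 13.91 and 13.84 in off. The difference was -0.03 ± 0.04 (SE, adjusted p = 0.718; 95% interval -0.12 to 0.06). After the correction it was -0.09 ± 0.03 (SE, adjusted p = 0.181), and with on replicate 1 also left out it was -0.11 and passed (limma adjusted p = 0.0165, where 10.0% of all genes were called).

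**Figure D3:**
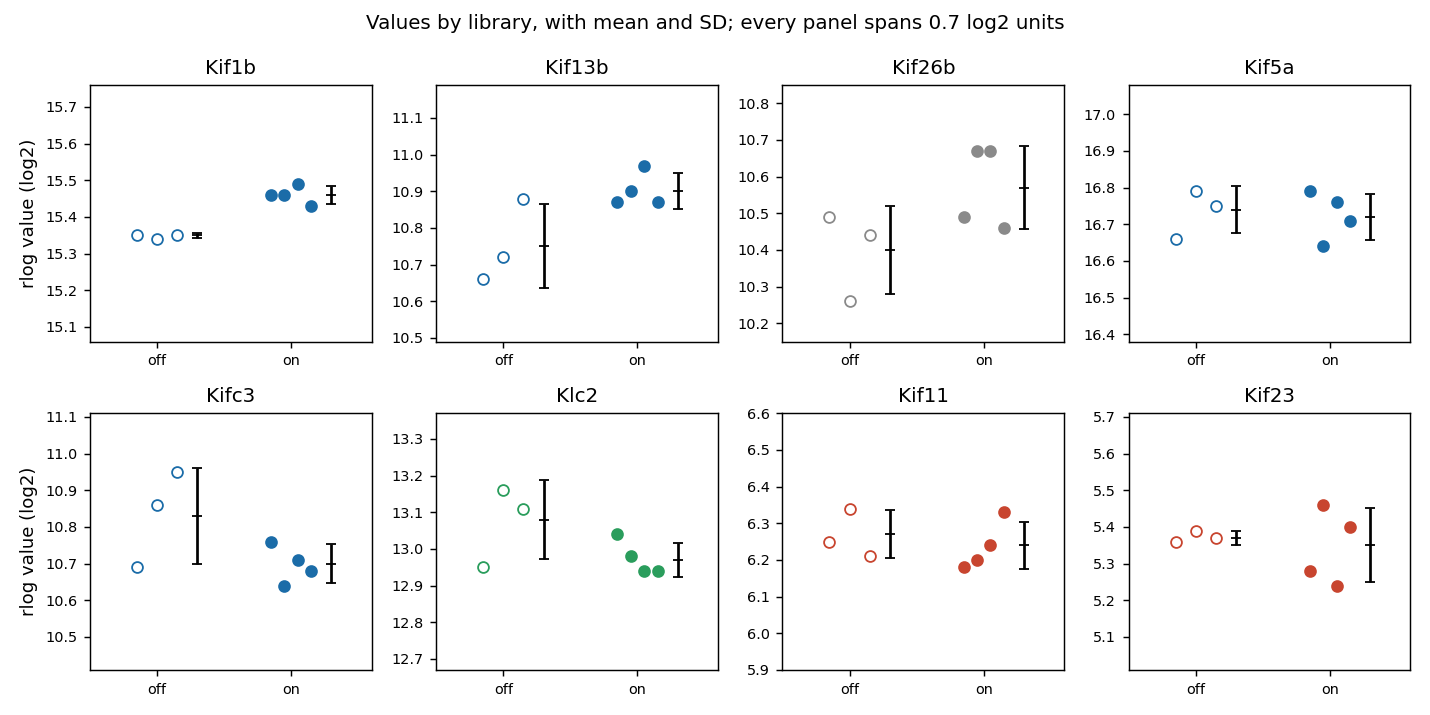
Deposited rlog values (log2 scale) of 8 kinesin genes in each on and off library, with bars for the group mean and SD, each panel spanning 0.7 units. On lies above off in every library for Kif1b (15.43 to 15.49 against 15.34 to 15.35), whereas the groups overlap for Kif13b, Kif26b, Kif5a, Kifc3, Klc2, Kif11 and Kif23.

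Kinesin-2 is a trimer of Kif3a with Kif3b or Kif3c and the adaptor Kifap3, and it serves cilia as well as axons. Kif3a (chromosome 11, 53567379 to 53601967) had 12.51, 12.50, 12.52 and 12.51 in on and 12.45, 12.48 and 12.46 in off. The groups did not overlap, and the on libraries lay within 0.02 of each other. The difference was 0.05 ± 0.03 (SE, adjusted p = 0.445), and 0.06 ± 0.03 (SE, adjusted p = 0.244) after the correction. The partners overlapped between the groups. Kif3b differed by 0.04 ± 0.04 (SE, adjusted p = 0.656), with on at 11.78 to 11.87 and off at 11.73 to 11.86. Kif3c, whose exons overlap those of an antisense gene over 2617 bases with no strand setting stated for the counting, differed by 0.01 ± 0.04 (SE, adjusted p = 0.956). Kifap3 differed by 0.03 ± 0.04 (SE, adjusted p = 0.665), with on at 13.60 to 13.65 and off at 13.52 to 13.63. Kif17, a homodimer of the same family that carries NMDA receptor subunits in dendrites, had on values of 9.49 to 9.55 and off values of 9.49 to 9.65 and differed by -0.06 ± 0.05 (SE, adjusted p = 0.506).

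Kif21a and Kif21b, kinesin-4 motors that pause microtubule growth, both had positive differences. Kif21a, the gene of congenital fibrosis of the extraocular muscles, had 13.47, 13.50, 13.49 and 13.44 in on and 13.42, 13.39 and 13.38 in off. The groups did not overlap, although on replicate 4 and off replicate 1 lay 0.02 apart. The difference was 0.08 ± 0.04 (SE, adjusted p = 0.228) and 0.02 after the correction. Kif21b overlapped, at 11.91 to 12.02 in on and with off replicates 2 and 3 among these values and off replicate 1 below them at 11.75, and differed by 0.07 ± 0.05 (SE, adjusted p = 0.488).

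Both C-terminal motors of the transport group, which walk to minus ends, had negative differences. Kifc3, which acts at cell junctions and on apical transport, had 10.76, 10.64, 10.71 and 10.68 in on and 10.69, 10.86 and 10.95 in off. Off replicates 2 and 3 lay above every on library and off replicate 1 among them. The difference, -0.14 ± 0.06 (SE, adjusted p = 0.183; 95% interval -0.25 to -0.02), was the most negative of all 42 members, and it was -0.06 (adjusted p = 0.427) after the correction. Kifc2 had on values of 13.61 to 13.77 and off values of 13.73 to 13.83, and differed by -0.09 ± 0.05 (SE, adjusted p = 0.251), or -0.02 after the correction.

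The light chains, which link the Kif5 heavy chains to cargo, had negative differences as deposited in 3 of 4 genes. Klc2 (chromosome 19, 5107746 to 5118560) had rlog values of 13.04, 12.98, 12.94 and 12.94 in on and 12.95, 13.16 and 13.11 in off. Off replicates 2 and 3 lay above every on library, and off replicate 1 did not. The difference was -0.10 ± 0.05 (SE, adjusted p = 0.243), and -0.02 after the correction. Klc4 differed by -0.10 ± 0.05 (SE, adjusted p = 0.211), with on at 9.61 to 9.69 and off at 9.69 to 9.78. Klc1, the main neuronal light chain, had on values of 14.49 to 14.55 and off values of 14.53 to 14.63 and differed by -0.05 ± 0.04 (SE, adjusted p = 0.473), which turned to 0.02 after the correction. Klc3, the least abundant, differed by 0.00 ± 0.07 (SE, adjusted p = 0.987). Over the light chains and Kifap3 the median was -0.05 as deposited and 0.02 after the correction, a change of sign, and 0 of 5 were called in either. Their transcripts had a median GC content of 59.1% and a median length of 2504 bases, against 49.5% and 3158 over all tested genes.

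The kinesins of microtubule ends, cilia and other roles included the most positive difference of the family. Kif26b, a kinesin without ATPase activity known from kidney development and planar cell polarity signalling, had 10.49, 10.67, 10.67 and 10.46 in on and 10.49, 10.26 and 10.44 in off. On replicates 2 and 3 were high and on replicates 1 and 4 lay near the off libraries. The difference was 0.17 ± 0.06 (SE, adjusted p = 0.148; 95% interval 0.04 to 0.31), and 0.06 ± 0.06 (SE, adjusted p = 0.656) after the correction. Its transcript, 13749 bases long, is long among kinesins. Without on replicate 1 the difference was 0.20 and passed (limma adjusted p = 0.0348). Kif2a, which removes tubulin from microtubule ends and limits axon branches, had 11.89, 12.07, 11.97 and 12.04 in on and 11.96, 11.97 and 11.85 in off. These overlap, with a difference of 0.07 ± 0.05 (SE, adjusted p = 0.464).

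Kinesins of the cilium had overlapping groups. Kif7, which sits at the cilium tip in hedgehog signalling, differed by -0.06 ± 0.05 (SE, adjusted p = 0.564) and had the lowest difference of this group. Kif19a, Kif9, Kif6 and Kif27 had differences of at most 0.04 in size. Markers of ciliated ependyma, 7 genes that mark the ciliated lining of the ventricles, deviated from their means by 0.18 in on replicate 1 and by -0.06 to 0.01 in the other 6 libraries. Kif19a, a motor that keeps motile cilia short, was highest in on replicate 1, at 7.01 against 6.82 to 6.97 elsewhere, and so were Kif6, at 6.70 against 6.55 to 6.64, and Kif27, at 7.32 against 7.21 to 7.31. Kif9 and Kif7 were highest in off libraries, at 7.94 in off replicate 3 and 6.77 in off replicate 2. The part of ependymal cells in these values was not tested. The untested Kif28, at rlog 2.05 to 2.09 in on and 2.10 to 2.12 in off, was under the filter, where the rlog transformation shrinks differences most.

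Of 11 tested mitotic motors, 0 differed at an unadjusted p under 0.05 in the limma fit, against 20.7% of all tested genes. Their differences ran from -0.05 to 0.07 with a median of 0.00. Kif11 (chromosome 19) had rlog values of 6.18, 6.20, 6.24 and 6.33 in on and 6.25, 6.34 and 6.21 in off. The groups overlap, and the difference was -0.03 ± 0.05 (SE, adjusted p = 0.793; 95% interval -0.15 to 0.09). Kif23, the motor of the centralspindlin complex in cytokinesis, had 5.28, 5.46, 5.24 and 5.40 in on and 5.36, 5.39 and 5.37 in off and differed by -0.03 ± 0.05 (SE, adjusted p = 0.822). The highest difference was that of Kif20b, a cytokinesis motor also active in growing neurons, at 0.07 ± 0.05 (SE, adjusted p = 0.461; 95% interval -0.04 to 0.19). The lowest was that of Kif20a, which carries the chromosomal passenger complex to the midzone, at -0.05 ± 0.04 (SE, adjusted p = 0.437; 95% interval -0.13 to 0.03). Exons of Kif20a overlap Cdc23 on the opposite strand over 1271 bases.

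The other mitotic motors lay between these. Kif4, a chromokinesin, differed by -0.02 and Kif22, another chromokinesin, by 0.00. Kif18a, which dampens chromosome oscillations, differed by 0.00, Kif15, a spindle motor that can stand in for Kif11, by 0.03, and Kif14 by 0.05. Kif2c, the centromeric tubulin depolymerase, differed by -0.01. Kifc1 was the mitotic motor whose groups did not overlap, with 5.26, 5.26, 5.26 and 5.27 in on and 5.21, 5.25 and 5.25 in off, but it differed by 0.02 ± 0.04 (SE, adjusted p = 0.770) and shares sequence with Kifc5b. Values this low are strongly shrunken by the transformation, so these intervals understate what a change could be on the scale of the RNA.

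Of 20 genes of proliferation, 19 were tested and 0 were called with limma, against 2.60% of all tested genes. At an unadjusted p under 0.05 there were 0 of 19, against 20.7% of all tested genes. The median difference of these genes was 0.02. Their median level per kb was 3.17, beside 2.94 for the mitotic motors, with Anln, a cytokinesis scaffold, far above at 9.55 per kb. Mki67, the proliferation antigen Ki-67, had off values of 5.76, 6.04 and 5.88, with all 4 on values within that range, and differed by 0.03 ± 0.07 (SE, adjusted p = 0.853). Top2a, the topoisomerase of dividing cells, had on values of 5.59 to 5.77 and off values of 5.54 to 5.83, which overlap. Its difference was -0.02 ± 0.07 (SE, adjusted p = 0.892).

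Across the kinesin genes the differences moved with transcript length, as they did across all genes. The Spearman correlation between difference and length was 0.61 over the 42 members and 0.39 over 17831 tested genes with a transcript, and between difference and GC content it was -0.33 and -0.38. These are across genes that share libraries and are given without a test. Of 16 members with transcripts of 6000 bases or more, 13 had positive differences and the median was 0.05. Of 26 shorter members, 13 were positive and 13 negative and the median was 0.00. Transport motors, with a median length of 6439 bases, had a median difference of 0.04, with 11 positive and 6 negative. At an unadjusted p under 0.05 there were 5 of 17 with positive differences (all genes 10.0%) and 1 of 17, Kifc3, with a negative one (all genes 10.6%). Mitotic motors, with a median of 4819 bases, had a median of 0.00.

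After the correction the correlation with length over the 42 members was 0.11 and with GC content 0.24, and over all genes -0.01 and 0.01. The median was then 0.02 for the 16 long members, 0.00 for the transport motors and -0.02 for the mitotic motors. Still 0 of 42 members were called, where 0.589% of all genes were (105 of 17831). Kif3a (0.06) and Kif5b (-0.09) were the 2 members with an unadjusted p under 0.05 in that fit, 0.0306 and 0.0136, against 16.8% of all genes.

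**Figure D4:**
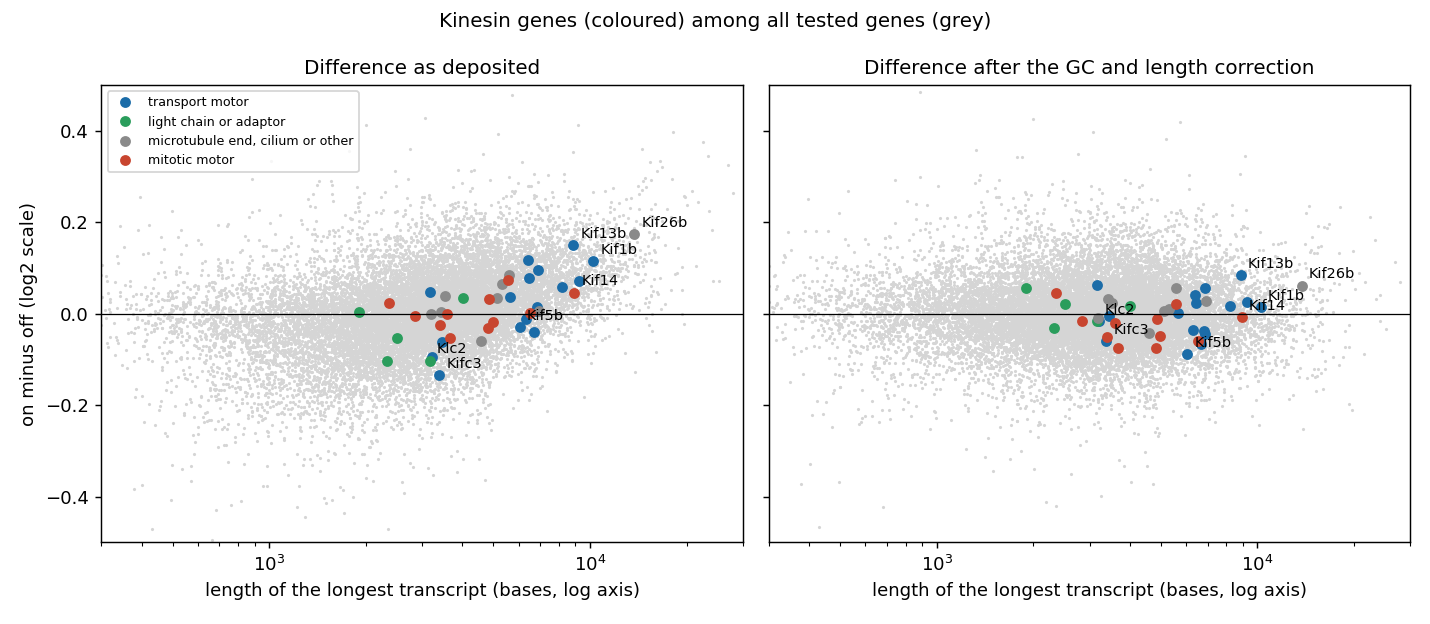
Difference between on and off (log2 scale) against transcript length (bases, log axis) for the tested kinesin genes in colour over all other tested genes in grey, as deposited on the left and after the correction for GC content and length on the right, with the vertical axis limited to 0.5 on either side, so grey genes beyond it are not drawn. The Spearman correlation over the 42 kinesin genes was 0.61 on the left and 0.11 on the right.

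The remaining genes of axonal transport were read from a list of 20 cargo adaptors and 26 genes of dynein and dynactin. Of the 46 genes, 2 rose and 1 fell in on (limma, adjusted p under 0.05), against 0.816% higher and 1.79% lower of all tested genes. The 20 cargo adaptors, proteins such as Trak and JIP that tie kinesins to mitochondria and vesicles, had 0 calls, with 1 of 20 positive (all genes 10.0%) and 6 of 20 negative (all genes 10.6%) at an unadjusted p under 0.05 and a median of -0.02. Dync1h1, the heavy chain of cytoplasmic dynein, rose by 0.20 ± 0.05 (SE, adjusted p = 0.0409), from 14.48, 14.49 and 14.60 in off to 14.66, 14.68, 14.79 and 14.74 in on. Hook3, an adaptor that activates dynein, rose by 0.20 ± 0.05 (SE, adjusted p = 0.0352), from 12.18 to 12.28 in off to 12.32 to 12.50 in on. Dynll1, the light chain LC8, fell by 0.20 ± 0.04 (SE, adjusted p = 0.0282), with 12.12, 12.10 and 11.99 in off and 11.85, 11.94, 11.86 and 11.82 in on. In each of the 3 the groups do not overlap.

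These 3 calls were lost with the correction in the full set of libraries and, without it, with some single libraries left out. After the correction the differences were 0.08 ± 0.03 (SE, adjusted p = 0.177) for Dync1h1, 0.05 ± 0.03 (SE, adjusted p = 0.327) for Hook3 and -0.16 ± 0.04 (SE, adjusted p = 0.0671) for Dynll1, so none passed. The transcripts of Dync1h1 (14342 bases) and Hook3 (12836 bases) are long. With the correction and without on replicate 1, 10.0% of all genes were called. There Dynll1 (-0.14, limma adjusted p = 0.021) and Dync1h1 (0.09, limma adjusted p = 0.0476) passed. Hook3 (0.06, limma adjusted p = 0.17) did not. With 1 library left out and no correction, Dync1h1 passed only without on replicate 1, with adjusted p otherwise between 0.0530 and 0.195. Hook3 missed the threshold without on replicate 2, 3 or 4 or off replicate 2 or 3 (adjusted p between 0.0907 and 0.167). Dynll1 missed it without on replicate 3 or 4 or off replicate 1 or 2 (adjusted p between 0.0759 and 0.157). The differences themselves stayed between 0.17 and 0.23 for Dync1h1 and for Hook3 and between -0.24 and -0.18 for Dynll1 with any 1 library left out.

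A pair of kinesins carry other names and lie outside the naming rule. Stard9, a kinesin with a lipid-binding START domain and a transcript of 15399 bases, was higher in on, at 10.56, 10.74, 10.80 and 10.77 against 10.40, 10.21 and 10.54. The difference of 0.33 ± 0.07 (SE, adjusted p = 0.0294) was 0.19 ± 0.06 (SE, adjusted p = 0.139) after the correction. Without the correction it missed the threshold without any 1 of on replicates 2 to 4 or off replicates 1 and 2 (adjusted p between 0.0623 and 0.163). With the correction and without on replicate 1 it was 0.23 and passed (limma adjusted p = 0.0186, where 10.0% of all genes were called). Cenpe, the kinetochore kinesin, had on values of 5.91 to 6.11 and off values of 5.92 to 5.99 and differed by 0.05 ± 0.05 (SE, adjusted p = 0.643), within the range of the mitotic motors.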

How the data were processed

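Brain RNA of 4 on and 3 off libraries was measured. Per the labels' protocols, a Qiagen miRNeasy kit with DNase gave the RNA and an Illumina TruSeq Stranded mRNA kit the libraries. The submitters' processing notes list, with no role or order, DESeq2 1.16.1, Subread 1.5.3, STAR 2.5.2, BWA 0.7.14-r1136 and cutadapt 1.9.1, and the build GRCm38. Not given in the sources used here are the annotation release and the strand setting. The values the authors deposited are rlog values on the log2 scale, which shrink the differences of low genes. Counts were not used, so depth is unknown.

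Genes with a mean rlog of 3 or more (17896) entered a two-sided limma 3.58.1 fit (R 4.3.3) of the group term with an intensity trend, and p-values were adjusted by Benjamini-Hochberg over all of them, at 0.05. The GC and length correction used mgcv 1.9.3 in 3 classes of mean value. Transcript properties came from GENCODE M21, promoters from RefSeq. The method was tested on simulated data for 17831 genes with independent noise, where 115 calls held 2 false ones. Adding the same length trend to every on library gave 2089 false calls before the correction and 3 after it. The trends of the real libraries differ from this, so these counts do not give their rate of false calls.

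Members, role lists and tests were chosen with earlier results of these data known. Genes named are those called, those whose groups do not overlap, a set of axonal motors, the mitotic motors, the extremes of each role list, the called genes of the adaptor and dynein lists, Mki67, Top2a, Stard9 and Cenpe. Kif13a, Kif26a, the ciliary kinesins and others were named after their values were seen. Alternatives covered the filter, scaling, prior, library weights, replicate block, correction, threshold and each library left out. No 2 libraries held identical values. Some sequences are not reported here.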

Additional observations from a re-analysis of the deposited data

Results flagged for a closer look

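Single libraries far from the others of their group were looked for in the 4 on libraries, over 46 values: the tested kinesin genes and the mean deviations of their 4 role lists. Chance alone flags about 1 in 20, or 2.3 of 46, and 2 were found. Kif26a, a kinesin without ATPase activity, had an rlog value of 7.83 in on replicate 2, below 7.98 to 8.01 in the other on libraries, whereas the off libraries had 7.83, 7.84 and 8.16. The light chain and adaptor genes had a mean deviation of 0.0462 in on replicate 1, above -0.0477 to -0.0319 in the other on libraries. On replicate 1 also lay with the off libraries on the first principal component, and the cause was not tested.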

How the results depend on the processing

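The number of genes called over the whole table moved most. From 466, it went to 7 with no filter, 237 with no intensity trend, 2215 with array weights, 105 with the GC and length correction, 1789 with that correction and without on replicate 1, 1182 at a threshold of 0.1, and 43 to 2917 with 1 library left out. The kinesin genes called stayed at 0 except for 1 with array weights (Kif13b), 1 with the correction without on replicate 1 (Kif5b), and 0 to 2 with 1 library left out (Kif13b and Kif26b, without on replicate 1). Of the adaptor, dynein and dynactin genes, 3 as reported, 0 were called with no filter, no trend or the correction, 10 with array weights, 6 with the correction without on replicate 1, 7 at a threshold of 0.1 and 0 to 14 with 1 library left out. The median of the transport motors, 0.036, was -0.007 with the correction without on replicate 1 and 0.009 to 0.057 with 1 library left out. That of the mitotic motors was -0.032 with the correction without on replicate 1 and -0.016 to 0.007 with 1 library left out. The cause was not tested.

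No sign of pairing by replicate number was seen. Deviations of libraries with the same number correlated at -0.23, -0.10 and 0.02, and no on library of replicates 1 to 3 correlated best with its own number. The deviations were taken from the group means of few libraries that share trends, so these values cannot exclude pairing. With the replicate block 30 genes were called over the whole table, 0 kinesins and 0 adaptor, dynein and dynactin genes. With the block and the correction together there were 2, 0 and 0, and the median of the mitotic motors was -0.029. Over all alternatives, 74 of 794 member values changed sign, none of them called.

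Depth is unknown, so no counting limit can be given, and differences of low genes are shrunken.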
